A study of Mus musculus with 8 samples.

Results

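The enzymes and factors that place, copy, guard and remove DNA methylation were followed as 10 genes. On the writing side were the de novo methyltransferases Dnmt3a and Dnmt3b with their partner Dnmt3l, and the maintenance pair Dnmt1 and Uhrf1. Erasers were the dioxygenases Tet1, Tet2 and Tet3. Dppa3 and Zfp57 are known for protecting methylation in the zygote and at imprinted loci, respectively. The 10 genes were taken by symbol from the tables of 24542 genes. All were found in all 8 samples and passed the filter on low values. The data are RNA-seq of TX1072, a female mouse ESC line from a Mus musculus castaneus (Cast) by C57BL/6 (B6) cross, in which doxycycline (DOX) drives Xist from the B6 X chromosome. The series asked how loss of the histone deacetylase HDAC3 affects X chromosome inactivation. It has 4 groups of 2 samples: TX1072 (Hdac3+/+) and Hdac3-/- cells, each at 0 hr, without DOX, and after 24 hr at 1 ug/ml. All cells were grown in serum with LIF and 2i, a pair of kinase inhibitors. The Hdac3+/+ samples are duplicates of the parental line. The Hdac3-/- samples come from 2 independent CRISPR/Cas9 deletion clones, each grown from a single cell, and are called clone 1 and clone 2 after the replicate number in their labels. With 2 samples in a group, p-values measure the spread between these samples only, and a property of both clones that arose in cloning cannot be told apart from the genotype.

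DNA methylation in mammals sits mainly on cytosines of CpG dinucleotides. DNMT3A and DNMT3B write it on unmethylated DNA, helped by the catalytically inactive DNMT3L. DNMT1 copies it after replication, guided to hemimethylated CpGs by UHRF1, and the TET enzymes oxidise 5-methylcytosine, which leads to its loss. ESCs grown in 2i are known for low DNA methylation. Methylation itself was not measured in these samples, so all values below are RNA levels of the genes.

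The samples held from 6940375 to 17125156 reads on genes, and 30.05% to 31.6% of these carried an allele. Hdac3 fell from 39.4 and 43.2 CPM (reads per 1000000 reads on genes) to 5.72 in clone 1 and 7.22 in clone 2 at 0 hr, a log2 fold change of -2.61 ± 0.18 (SE; adjusted p = 0.000391, edgeR's quasi-likelihood test with Benjamini-Hochberg adjustment). The 8 ESC markers, among them Pou5f1, Nanog and Esrrb, summed to 4763 to 5047 CPM in Hdac3+/+ and 5772 to 6147 in Hdac3-/- over both times. They did not move together. At 0 hr Nanog had 1006 and 962.5 CPM in Hdac3+/+ and 1609 and 1367 in the clones, and Tbx3 471 and 483 against 1132 and 1005. Esrrb was lower in the clones, with 698 and 685 against 619 and 673 CPM, and so was Tfcp2l1, with 1352 and 1355 against 1168 and 1290. The 3 markers of two-cell-like cells were low, at 4.64 to 8.31 CPM in Hdac3+/+ and 0.249 to 3.796 in Hdac3-/-. The 4 fibroblast markers summed to 253 and 267 CPM in Hdac3+/+ and to 94.5 and 120 in Hdac3-/- at 0 hr, most of it Vim, which ESCs also express. The 4 markers of primed cells summed to 197 to 239 CPM in Hdac3+/+ and 141 to 186 in Hdac3-/- over both times, and their defining gene Fgf5 was under 1 CPM in every sample. The part of these marker differences in the results below was not tested. Clone 2 stood apart on chromosome 16, where its median d-score, the B6 share of allelic reads, was 0.5 and 0.493 against 0.332 to 0.341 in the other 6 samples. None of the 10 genes lies there.

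Per unit of exon length, the levels at 0 hr in Hdac3+/+ spread widely. Uhrf1 led with 494 ± 16.3 TPM (transcripts per 1000000 transcripts; SD, n = 2), followed by Zfp57 with 425 ± 34.5, Dppa3 with 309 ± 26.9, Tet1 with 269 ± 34.5 and Dnmt1 with 226 ± 0.705. Tet2 with 110 ± 23.2 and Dnmt3b with 99.3 ± 0.253 came next. The de novo factors Dnmt3l and Dnmt3a were low, at 25.7 ± 4.15 and 21.2 ± 4.39 TPM, and Tet3 was lowest at 14.4 ± 3.14. Neighbours in this order whose samples overlapped were Dppa3 and Tet1, Tet2 and Dnmt3b, and Dnmt3l and Dnmt3a. In Hdac3-/- at 0 hr the order was Zfp57, Uhrf1, Dnmt1, Tet1, Tet2, Dppa3, Dnmt3b, Dnmt3l, Dnmt3a and Tet3. There Dppa3, at 62.9 ± 5.19 TPM, overlapped Dnmt3b, and the pairs Zfp57 and Uhrf1, Dnmt3l and Dnmt3a, and Dnmt3a and Tet3 overlapped too. TPM rests on the length of all annotated exons of a gene, which is above 15000 bases for Dnmt3a, Tet1, Tet2 and Tet3, and lowers their level if long exons are not used in ESCs.

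At 0 hr, 6 of the 10 genes differed between genotypes. Dppa3, Dnmt3b and Tet1 were lower in Hdac3-/-, and Uhrf1, Tet2 and Zfp57 were higher, while Dnmt1, Dnmt3a, Dnmt3l and Tet3 did not pass the test. Over all 13226 genes tested 13.6% were called at an adjusted p under 0.05 (6.33% higher and 7.24% lower), and the median log2 fold change of the 10 was 0.25 against 0.0028 over all genes. With the study's fold threshold, an absolute log2 fold change above 1, only Dppa3 remained of the 10 at either time, against 6.19% of all genes at 0 hr and 4.97% at 24 hr. At 24 hr, 4 of the 10 passed (Dppa3 and Dnmt3b lower, Tet2 and Zfp57 higher), with 10.9% of 13111 genes called (5.16% higher and 5.79% lower). The fits at 0 and 24 hr use different libraries of the same line and clones, so they are repeats in time and not independent cell lines. In bulk samples, fewer cells expressing a gene and less RNA per cell cannot be told apart.

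**Figure D1:**
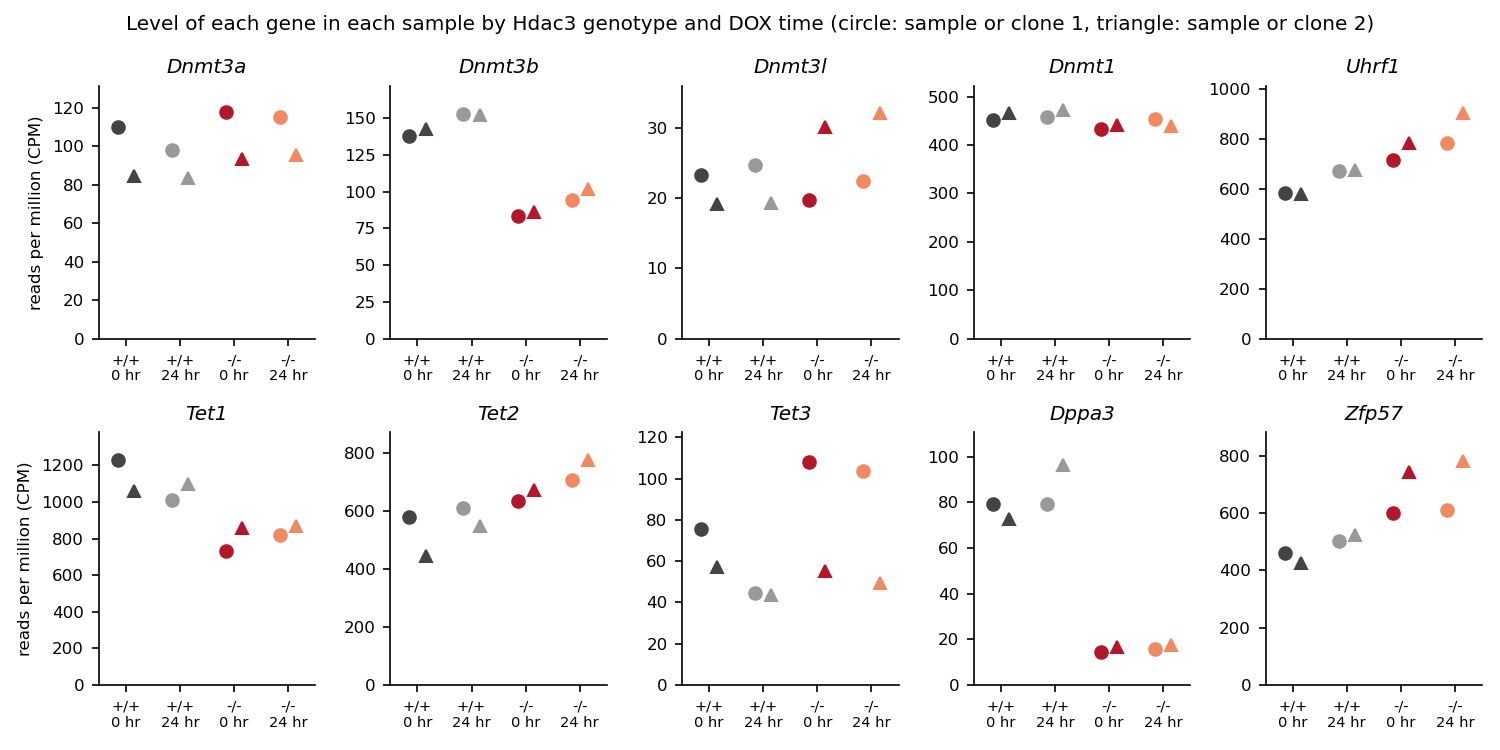
Reads per 1000000 (CPM, linear axis from 0) of the 10 genes in each of the 8 samples, by Hdac3 genotype and DOX time; each point is a sample, a circle for replicate or clone 1 and a triangle for replicate or clone 2. Dppa3 and Dnmt3b in Hdac3-/- lie below both Hdac3+/+ samples at both times, and Tet3 is high in clone 1 only.

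**Figure D2:**
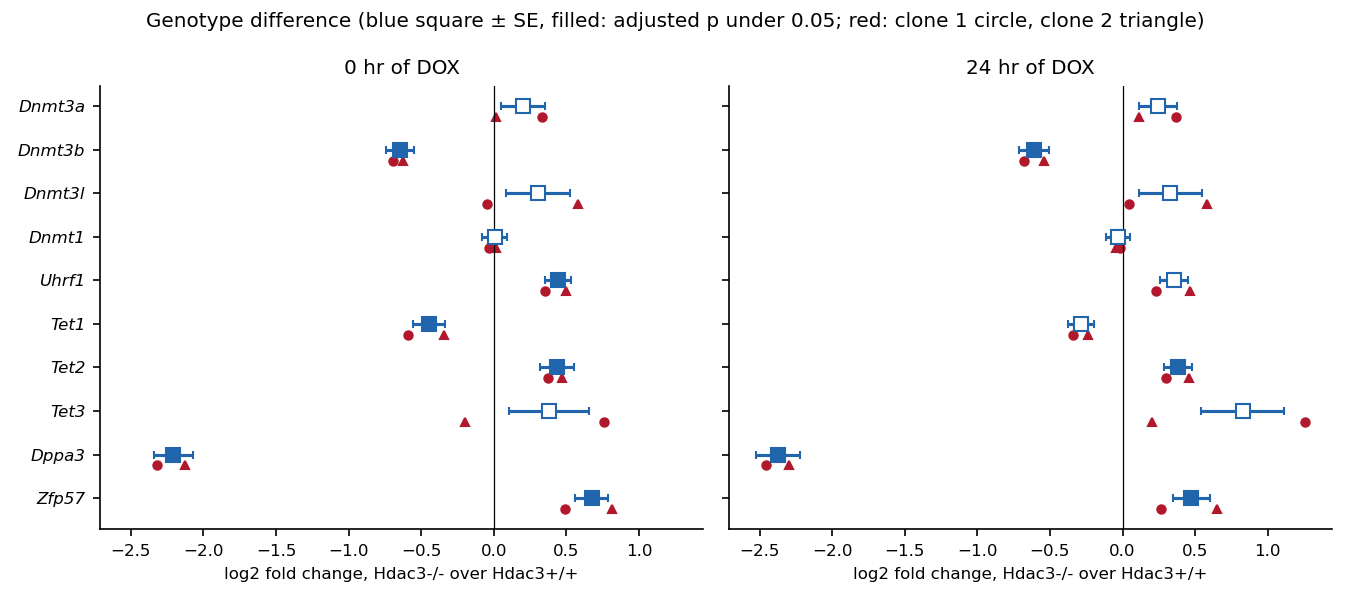
log2 fold change of Hdac3-/- over Hdac3+/+ at 0 hr and 24 hr with its standard error (blue squares, filled where edgeR's adjusted p is under 0.05), and the value of each clone against the Hdac3+/+ mean (red). Dppa3 stands at -2.21 and -2.37, and the clones part most for Tet3, at 0.76 and -0.20 at 0 hr.

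Dppa3 (chr6:122626410-122630272 in GRCm38, plus strand), which encodes the STELLA protein that shields the maternal genome from TET3 in the zygote and binds UHRF1, changed most. It had 79.3 and 72.7 CPM in Hdac3+/+ at 0 hr and 14.7 and 16.6 CPM in clones 1 and 2, and at 24 hr 79.4 and 96.4 against 15.8 and 17.3 CPM. The genotypes did not overlap at either time, which held for 60.5% of all genes tested at 0 hr and 58% at 24 hr. The clones were close to each other. The log2 fold change was -2.21 ± 0.13 (SE; 4.62-fold lower, adjusted p = 0.000311, edgeR's quasi-likelihood test) at 0 hr and -2.37 ± 0.15 (5.18-fold lower, adjusted p = 0.00029) at 24 hr. At 0 hr, 91 of the 958 genes called lower had fallen at least as far, Dppa3 included. Which way Dppa3 acts on methylation in these cells was not tested. Of the 10 genes it alone kept its call when either Hdac3+/+ sample was left out, with adjusted p up to 0.00518 from edgeR over all samples left out in turn. The coding sequence of Dppa3 has a near-identical copy on the X chromosome, the processed pseudogene Dppa3-ps (chrX:37625647-37626097, minus strand), which was not analysed here. In the GENCODE transcripts the copies differ at 8 of 451 aligned bases (98.2% identity), and the longest stretch without a difference is 86 bases, shorter than the reads of 100 bases. The first 180 aligned bases, from base 3 of the coding sequence, are shown with the differing bases in capitals, since these are the positions by which a read can be assigned:
Dppa3: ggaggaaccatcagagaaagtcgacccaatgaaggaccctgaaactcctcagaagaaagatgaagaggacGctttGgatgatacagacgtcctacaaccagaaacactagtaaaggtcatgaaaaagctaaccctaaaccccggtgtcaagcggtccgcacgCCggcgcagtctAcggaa
Dppa3-ps: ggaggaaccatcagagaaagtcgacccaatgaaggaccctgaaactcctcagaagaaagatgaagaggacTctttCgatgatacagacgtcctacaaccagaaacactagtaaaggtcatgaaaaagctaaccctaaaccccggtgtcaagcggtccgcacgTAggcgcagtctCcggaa
Reads over these positions separate the copies only where the aligner used the differences, so the values of Dppa3 carry an uncertainty of assignment that the other 9 genes were not checked for.

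Dnmt3b (chr2:153649450-153687730, plus strand), the de novo methyltransferase of the early embryo, had 138 and 142 CPM in Hdac3+/+ at 0 hr and 83.2 and 86.4 CPM in clones 1 and 2. At 24 hr it had 153 CPM in both Hdac3+/+ samples and 94.2 and 102 in the clones. Each clone was below both Hdac3+/+ samples at both times. The log2 fold change was -0.65 ± 0.10 (SE; adjusted p = 0.00595, edgeR's quasi-likelihood test) at 0 hr and -0.61 ± 0.10 (adjusted p = 0.00877) at 24 hr, or 1.57-fold and 1.52-fold lower. With a single Hdac3+/+ sample the adjusted p rose to as much as 0.078 at 0 hr and 0.14 at 24 hr, and the fall stayed between 0.54 and 0.70 on the log2 scale.

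The partners of Dnmt3b in de novo methylation did not pass the test. Dnmt3a, its paralogue, had 110 and 84.8 CPM in Hdac3+/+ against 118 and 93.6 in the clones at 0 hr, and 98.0 and 83.4 against 115 and 95.3 CPM at 24 hr. The genotypes overlapped at both times. Its log2 fold change was 0.20 ± 0.15 (SE; adjusted p = 0.421, edgeR) at 0 hr and 0.24 ± 0.13 (adjusted p = 0.27) at 24 hr. Dnmt3l, the cofactor, had 23.2 and 19.14 CPM in Hdac3+/+, 19.7 in clone 1 and 30.1 in clone 2 at 0 hr, and 24.7, 19.3, 22.4 and 32.0 CPM in the same order at 24 hr. Clone 2 was thus the highest sample at both times, while clone 1 lay between the Hdac3+/+ samples. Without clone 1 the log2 fold change of Dnmt3l at 0 hr rose from 0.31 to 0.59 (adjusted p = 0.00721, edgeR), and without clone 2 that of Dnmt3a rose to 0.36 (adjusted p = 0.0183, edgeR).

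Of the maintenance pair, Dnmt1 did not pass the test and Uhrf1 was higher in Hdac3-/- at 0 hr. Dnmt1, the maintenance methyltransferase, had 453 and 467 CPM in the parental samples and 433 and 442 in the clones at 0 hr, and 458, 473, 454 and 439 CPM at 24 hr. After TMM normalization the log2 fold change was 0.0047 ± 0.084 (SE; adjusted p = 0.977, edgeR) at 0 hr and -0.03 ± 0.084 (adjusted p = 0.863) at 24 hr, and the sign at 0 hr turned in a fit of all 8 samples (-0.0096). Uhrf1, the E3 ligase that brings DNMT1 to replicated DNA, before DOX had 584 and 578 CPM in the parental line and 713 and 781 in the clones. At 24 hr it had 671 and 675 against 781 and 903 CPM. Both clones were above both Hdac3+/+ samples at each time, with clone 2 the higher. The log2 fold change was 0.44 ± 0.087 (SE; adjusted p = 0.0161, edgeR's quasi-likelihood test) at 0 hr, and 0.36 ± 0.098 at 24 hr, where it missed the threshold (adjusted p = 0.054) that it passed with DESeq2 and in the fit of all 8 samples.

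The TET genes did not move together. Tet1 had 1229 and 1062 CPM in Hdac3+/+ at 0 hr and 731 and 861 in clones 1 and 2. At 24 hr the values were 1010 and 1096 against 822 and 869 CPM. The genotypes did not overlap at either time, as held for 60.5% of all genes at 0 hr and 58% at 24 hr. The log2 fold change was -0.45 ± 0.11 (SE; adjusted p = 0.0333, edgeR's quasi-likelihood test) at 0 hr and -0.29 ± 0.088 (adjusted p = 0.0746) at 24 hr. Tet2 went the other way, with 578 and 443 CPM in Hdac3+/+ and 636 and 670 in the clones at 0 hr, and 611 and 549 against 705 and 774 CPM at 24 hr. Its log2 fold change was 0.44 ± 0.12 (SE; adjusted p = 0.0486, edgeR's quasi-likelihood test) at 0 hr and 0.38 ± 0.097 (adjusted p = 0.0408) at 24 hr. At 0 hr its Hdac3+/+ samples differed by more than its clones did, and with either Hdac3+/+ sample alone Tet2 was not called (adjusted p up to 0.32, edgeR). A fit of all 8 samples gave an adjusted p of 0.0673 for Tet2 at 24 hr. The direction of Tet1 and Tet2 held in each alternative fit at both times.

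Dnmt3b and Tet2, called in opposite directions at both times, each have a single RefSeq promoter entry in GRCm38.p6, and both are rich in CpG, the dinucleotide that the enzymes themselves act on. The 250 bases before the start are shown 5′ to 3′ with each CG in capitals, for Dnmt3b chr2:153649199-153649448 on the plus strand and for Tet2 chr3:133544391-133544640 on the minus strand:
Dnmt3b: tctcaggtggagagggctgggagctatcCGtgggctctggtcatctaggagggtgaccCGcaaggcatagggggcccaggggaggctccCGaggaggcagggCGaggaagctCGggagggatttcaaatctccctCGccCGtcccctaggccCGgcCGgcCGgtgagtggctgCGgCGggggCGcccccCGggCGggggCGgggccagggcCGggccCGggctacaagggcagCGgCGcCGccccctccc
Tet2: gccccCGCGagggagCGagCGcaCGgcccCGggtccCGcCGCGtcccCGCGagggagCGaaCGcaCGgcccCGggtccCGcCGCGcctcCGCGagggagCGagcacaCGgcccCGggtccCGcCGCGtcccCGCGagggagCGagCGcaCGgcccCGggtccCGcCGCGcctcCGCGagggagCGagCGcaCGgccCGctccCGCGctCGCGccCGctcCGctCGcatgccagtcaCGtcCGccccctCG
The Dnmt3b window holds 21 CG, a number that 16.3% of 32851 RefSeq promoters reach, and that of Tet2 holds 51, which 0.067% reach. RefSeq entries were matched for 9 of the 10 genes, all but Dppa3. The genes called higher at 0 hr include the window richest in CG (Tet2). The 3 windows of Zfp57, also called higher, held 3, 6 and 7, where the median of all promoters is 6. Those of Uhrf1, called higher at 0 hr too, held 10 and 30. Among genes not called, the windows of Dnmt1 held 2 (the fewest of all), 7 and 26 CG, and those of Dnmt3a 15, 38 and 40. Those of Dnmt3l, not called either, held 3, 4 and 5, and that of Tet3 17. The window of Tet1, called lower at 0 hr, held 15.

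Tet3, the lowest of the 3 TET genes, differed most between the clones. It had 75.5 and 57.3 CPM in Hdac3+/+ at 0 hr, 108 in clone 1 and 55.1 in clone 2, and at 24 hr 44.6 and 43.5 CPM against 104 in clone 1 and 49.3 in clone 2. Clone 1 was above every other sample at both times, and clone 2 was below both Hdac3+/+ samples at 0 hr and above both at 24 hr. The log2 fold change over both clones was 0.38 ± 0.27 (SE; adjusted p = 0.402, edgeR) at 0 hr and 0.83 ± 0.28 (adjusted p = 0.101) at 24 hr. Against the Hdac3+/+ mean, clone 1 alone stood at 0.76 and 1.25 and clone 2 at -0.20 and 0.20 on the log2 scale.

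The d-score of Tet3 parted the clones too. It was 0.652 in clone 1 at both times, from 727 and 483 allelic reads, and 0.426 and 0.435 in clone 2, against 0.5 to 0.536 in the 4 Hdac3+/+ samples. The exact 95% Clopper-Pearson intervals of clone 1 (0.616 to 0.687 and 0.608 to 0.695) did not reach those of clone 2 (0.364 to 0.49 and 0.364 to 0.508); they cover counting error only. The genes next to Tet3 showed the same in clone 1. A run of 21 genes on chromosome 6, Tet3 included, was found in which the running median over 11 genes of clone 1 minus Hdac3+/+ was at least 0.1 (chr6:81923669-83506969, 1583 kb, from Gcfc2 to Dguok); the run was delimited after the values were seen, and its d-scores in clone 1 are therefore a description. Without Tet3, the median d-score of its 20 genes was 0.693 and 0.684 in clone 1, against 0.504 to 0.546 in the other 6 samples, and that of the other 424 genes of chromosome 6 was 0.49 to 0.504 in all 8. The total levels were compared next. They include the allelic reads that set the d-scores, so they are a description too. The same 20 neighbours had a median log2 level in clone 1 over Hdac3+/+ of 0.56 at 0 hr and 0.45 at 24 hr, against -0.083 and -0.015 on the rest of the chromosome, and of -0.063 and 0.063 in clone 2. The part of this block in the Tet3 values was not tested. No gene with a d-score in all 8 samples lay between Suclg1, 10.1 Mb before Tet3, and Gcfc2, 1.44 Mb before it. Where the block ends on that side is therefore not resolved.

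**Figure D3:**
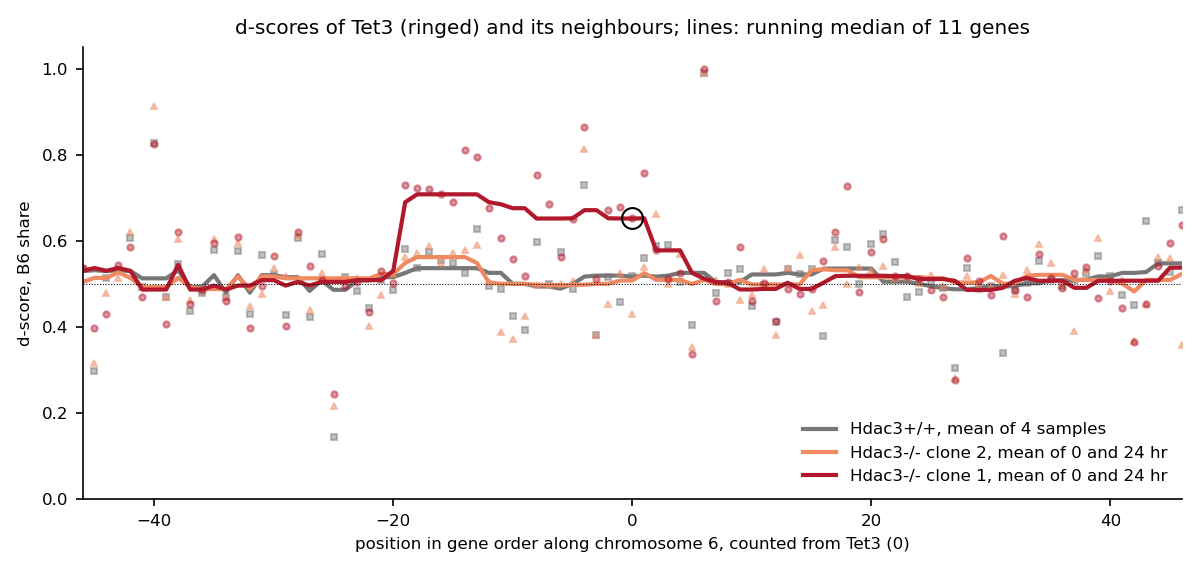
d-score (B6 share of allelic reads, 0 to 1) of Tet3 and its neighbours with a d-score in all 8 samples, in gene order along chromosome 6 counted from Tet3 at 0; points are means over the samples of Hdac3+/+ (gray), clone 1 (red circles) and clone 2 (orange triangles), lines are running medians of 11 genes. In clone 1 the line leaves that of the other samples over the 21 genes around Tet3 (ringed) and returns on both sides. The axis does not show distance, and the first gene left of the run, Suclg1, lies 10.1 Mb from Tet3.

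Zfp57 (chr17:37001163-37010635, plus strand), a KRAB zinc finger protein that keeps methylation at imprinted loci, was higher in Hdac3-/-. It had 462 and 426 CPM in Hdac3+/+ at 0 hr and 599 and 742 in clones 1 and 2, and at 24 hr 503 and 522 against 610 and 783 CPM. Both clones were above both Hdac3+/+ samples, and clone 2 was the highest sample at each time. The log2 fold change was 0.67 ± 0.12 (SE; 1.59-fold, adjusted p = 0.00988, edgeR's quasi-likelihood test) at 0 hr and 0.47 ± 0.13 (1.39-fold, adjusted p = 0.0466) at 24 hr. The call at 24 hr was lost with voom and limma (adjusted p = 0.058) and in the fit of all 8 samples.

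The next question was whether 24 hr of DOX changed these genes. In the fit of all 8 samples, none of the 10 passed the test in either genotype. In Hdac3+/+ 0.217% of 13807 genes were called, and in Hdac3-/- 0.0217% (30 and 3 genes; edgeR called 991 and 265 at an unadjusted p under 0.05, DESeq2 called 115 and 15, and voom 14 and 2). The log2 fold changes of the 10 ran from -0.58 (Tet3) to 0.23 (Uhrf1) in Hdac3+/+ and from -0.12 (Tet3) to 0.19 (Dnmt3b) in Hdac3-/-. A fit of the 4 Hdac3+/+ samples alone called 292 genes, Tet3 among them (-0.57 ± 0.12 SE, adjusted p = 0.0236, edgeR), and without the filter on low values 275 genes were called, again with Tet3 (adjusted p = 0.00265, edgeR). The replicate number, taken to mark the clone in Hdac3-/-, was then used as a block. With it, 260 genes were called in Hdac3-/- and 2 of the 10. These were Uhrf1 with a log2 fold change of 0.15 ± 0.042 (SE, adjusted p = 0.0355, edgeR with replicate block) and Tet2 with 0.16 ± 0.044 (adjusted p = 0.0359). Uhrf1 rose from 713 to 781 CPM in clone 1 and from 781 to 903 in clone 2, and Tet2 from 636 to 705 and from 670 to 774.

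Whether the DOX change itself differed between genotypes was tested as an interaction. edgeR's quasi-likelihood test called 0 genes (0%) of 13807, with 260 at an unadjusted p under 0.05, DESeq2 called 1 and voom 0. Among the 10 the interaction ran from -0.19 (Zfp57) to 0.46 (Tet3) on the log2 scale, and the adjusted p was 1.00 for each. The 2 Hdac3+/+ samples of Tet3 fell from 75.5 and 57.3 to 44.6 and 43.5 CPM with DOX, while clone 1 (108 and 104) and clone 2 (55.1 and 49.3) moved less. The SE of this interaction was 0.51, larger than the difference, in a fit that does not pair the samples of a clone. With a replicate block within each genotype, the Tet3 interaction was 0.47 ± 0.11 (SE, adjusted p = 0.0061, edgeR with replicate block), and 253 genes were called. That block also pairs the Hdac3+/+ samples by number, for which the sources give no reason, so the 2 fits leave the Tet3 interaction undecided.

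At the level of the alleles, 9595 genes had a d-score in all 8 samples, the 10 genes among them, with a median over genes of 0.503. None of the 10 passed the test of the B6:Cast ratio between genotypes, where edgeR called 0.667% of the 9595 genes at 0 hr and 1.07% at 24 hr (64 and 103 genes; limma on the log2 ratio called 2 at each time; 3 and 2 of the 10 were at an unadjusted p under 0.05 in edgeR). Dnmt3b came closest. Before DOX its d-score was 0.458 and 0.514 in the parental samples and 0.4 and 0.392 in the clones, and at 24 hr 0.484 and 0.472 against 0.397 and 0.418. The log2 B6:Cast ratio was lower by a log2 difference of -0.52 ± 0.14 (SE; adjusted p = 0.135, edgeR) at 0 hr and -0.42 ± 0.14 (adjusted p = 0.287) at 24 hr.

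Some of the 10 genes leaned to a parental allele in every sample. Dppa3 was read mostly from Cast, with d-scores from 0.124 to 0.219 over the 8 samples on 151 to 899 allelic reads, and 1.20% of the 9595 genes had a mean d-score as low. Both of its alleles were lower in Hdac3-/-: at 0 hr it had 152 and 142 B6 reads and 747 and 608 Cast reads in Hdac3+/+, and 39 and 23 B6 reads and 178 and 163 Cast reads in the clones. The 20 genes nearest to Dppa3 had median d-scores of 0.424 to 0.476. Zfp57 leaned to B6, with d-scores from 0.7 to 0.774, a level that 2.89% of genes reach, but only 5.65% to 6.83% of its reads carried an allele. Dnmt3a leaned to Cast, at 0.263 to 0.424, and the interval lay below 0.5 in 7 of 8 samples. Tet1 leaned to B6 within a narrow range, 0.572 to 0.594, on 2693 to 5827 allelic reads. Dnmt1 stayed at 0.486 to 0.499. Whether read mapping favours an allele at these genes was not tested.

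**Figure D4:**
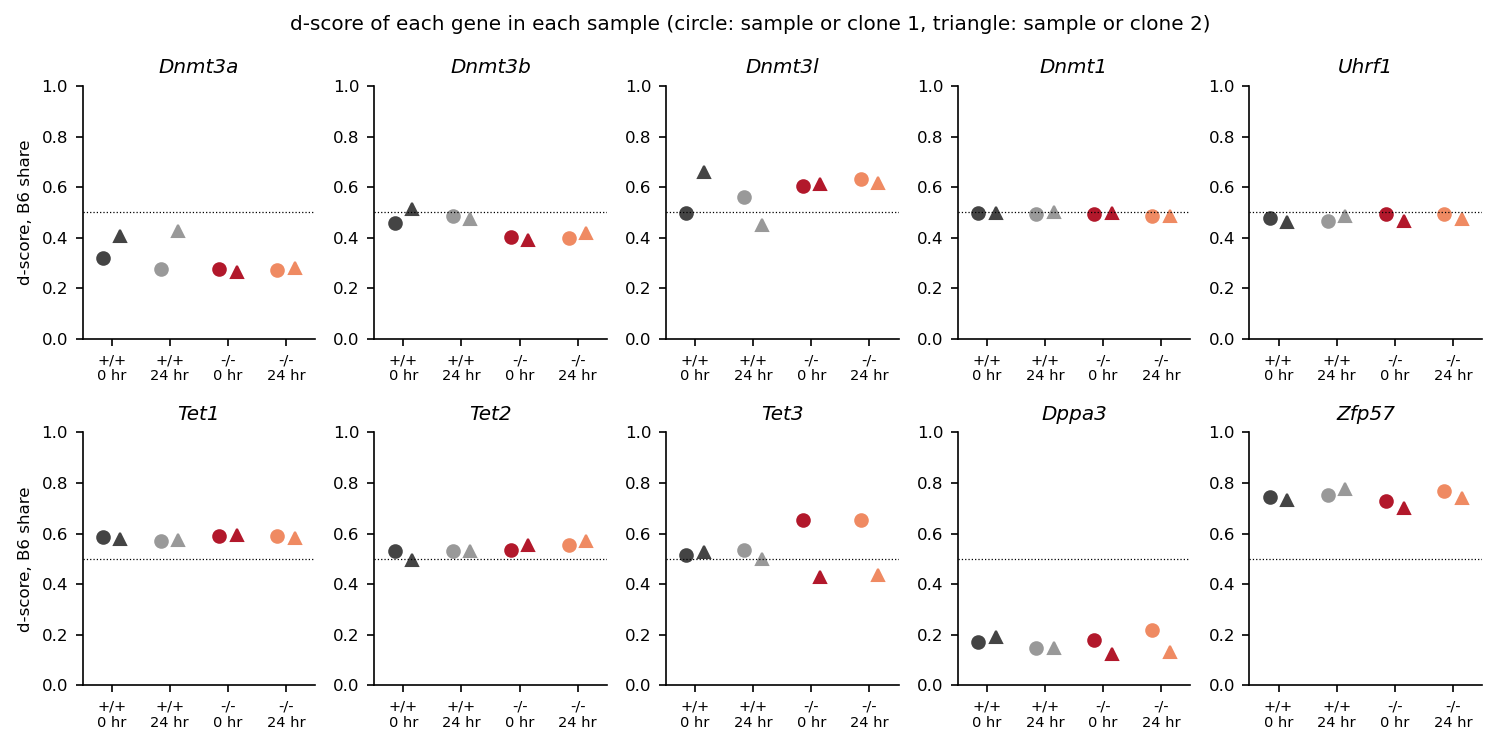
d-score (B6 share of allelic reads; dotted line at 0.5) of the 10 genes in each of the 8 samples, by genotype and DOX time; circles are replicate or clone 1 and triangles replicate or clone 2. Dppa3 lies between 0.124 and 0.219 and Zfp57 between 0.7 and 0.774 in all samples, and Tet3 is at 0.652 in clone 1 only.

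Around these 10 genes, 4 lists of genes that read, repair, supply or regulate DNA methylation gave from 1 to 3 calls each at 0 hr, where 13.6% of all genes were called. Of 11 readers, 1 fell and 0 rose: Zbtb38, a methyl-CpG binding zinc finger protein, from 66.6 and 62.3 CPM to 35.4 and 22.9 in clones 1 and 2 (log2 fold change -1.06 ± 0.19 SE, adjusted p = 0.0119, edgeR). At 24 hr Zbtb38 was lower again (-1.13), and Uhrf2 (0.49), a paralogue of Uhrf1, rose. Of 13 excision and repair genes 10 could be tested, and Gadd45b (0.94), a stress-induced factor, and the poly(ADP-ribose) polymerase gene Parp1 (0.33) rose, 2 of the 10, with Parp1 alone called at 24 hr. Tdg, the glycosylase that removes oxidised methylcytosine, held 0 to 2 reads in each sample, and Neil2 3 to 11, and these were not tested. Whether reads of Tdg were lost in assignment to similar sequences was not checked, so its count does not show that the gene is silent.

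The supply of methyl groups gave 3 calls of 13 genes, the same genes at both times, where 13.6% of all genes were called at 0 hr and 10.9% at 24 hr. Mtrr, which restores methionine synthase, rose from 49.2 CPM in both Hdac3+/+ samples to 70.1 and 81.2 in clones 1 and 2 at 0 hr (log2 fold change 0.70 ± 0.12 SE, adjusted p = 0.0102, edgeR). Gldc, of the glycine cleavage system, fell from 145 and 123 to 76.5 and 62.2 CPM (-0.87 ± 0.13, adjusted p = 0.00586, edgeR). Tdh, the threonine dehydrogenase on which mouse ESCs rely, fell from 399 and 416 to 248 and 282 CPM (-0.54 ± 0.099, adjusted p = 0.0123, edgeR). Among 19 cofactors and regulators 18 were tested, and 2 were called at 0 hr and 1 at 24 hr. Prdm14 (0.42), which represses de novo methyltransferases in ESCs, and Ogt (0.35), a partner of the TET proteins, were higher at 0 hr, and Ogt alone (0.57) at 24 hr. Ogt is X-linked: its Hdac3+/+ samples had 415 and 396 CPM at 0 hr and 305 and 311 at 24 hr with Xist induced, and clones 1 and 2 had 464 and 516, then 427 and 469. The median log2 fold change of these 4 lists lay between -0.052 and 0.21 at 0 hr.

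Germline genes whose promoters are known to be held silent by methylation formed the fifth list. Of 14 tested, 13 rose at 0 hr and 12 at 24 hr, and 0 fell, where 6.33% and 5.16% of all genes were called higher. The medians were 2.56 and 2.77 on the log2 scale against 0.0028 and 0.0041 over all genes. Not all were silent in Hdac3+/+. At 0 hr Dazl had 53.7 and 77.9 CPM there and Tex19.1 had 56.4 and 62.5. The list includes meiosis genes that the study itself picked from these samples, so the count is not independent evidence of its direction. The largest change was that of Asz1, a germ cell factor of piRNA biogenesis, with 0 and 4 reads in Hdac3+/+ and 59 and 154 reads in the clones at 0 hr, and 1, 0, 27 and 125 reads at 24 hr. Its fitted log2 fold change of 5.62 ± 0.98 (SE; adjusted p = 0.0107, edgeR) rests on these few Hdac3+/+ reads. Brdt, Sycp1 and Piwil2 followed with 4.31, 3.09 and 3.07. Dpep3 at both times (1.18 and 1.35) and Tex101 at 24 hr (2.09) did not pass, and Tdrd1, at 1 to 10 reads, was not tested. The paper states that DNA methylation usually keeps such meiosis genes off. For these hypomethylated cells in 2i and LIF it credits HDAC3 with their repression. Whether methylation at these promoters differed was not measured, so the rise is not a readout of methylation.

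**Figure D5:**
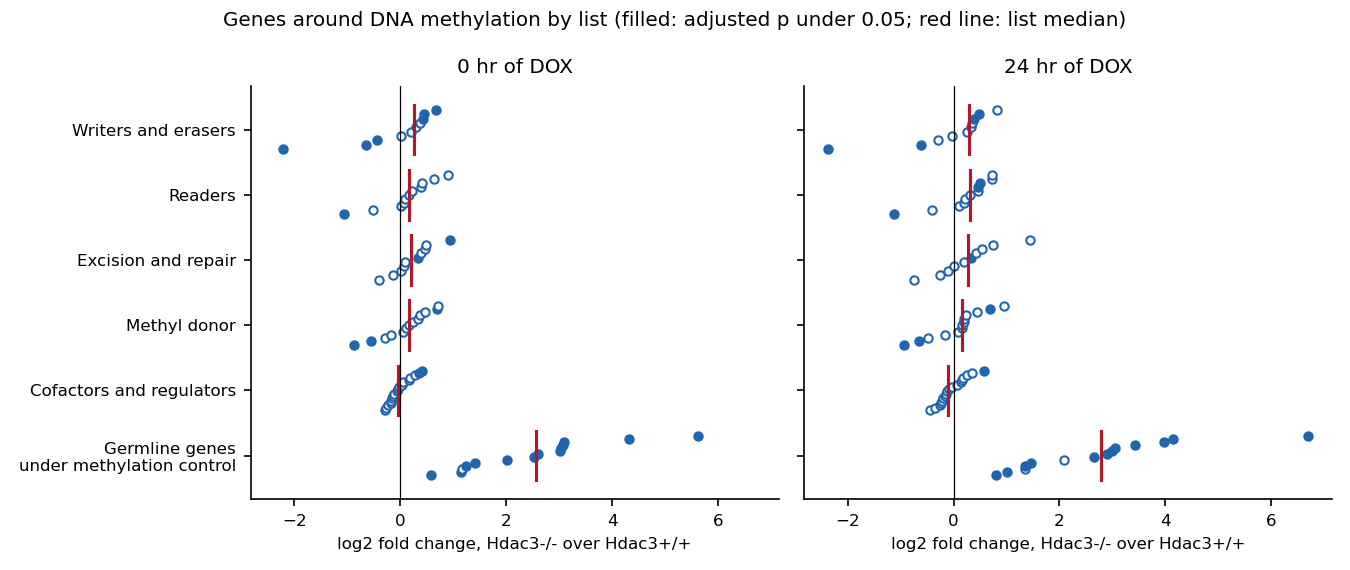
log2 fold change of Hdac3-/- over Hdac3+/+ at 0 hr and 24 hr for the 10 genes and 5 lists around DNA methylation; each point is a gene, filled where edgeR's adjusted p is under 0.05, and red lines are list medians. The germline genes lie to the right of 0 with medians of 2.56 and 2.77, and the medians of the other groups lie between -0.10 and 0.30.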

How the data were processed

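RNA-seq of 8 samples was read from a table per sample with a row per gene symbol. Per the study's methods and labels, the authors removed reads mapping to rRNA, aligned the rest to mm10 with TopHat2 2.1.0 on refFlat genes, reporting 1 alignment a read, and counted paired reads over exons by strand with featureCounts 1.5.1. The deposited counts (total, B6 and Cast) are not normalized; the d-score is a deposited fraction, the share of a gene's allelic reads that are B6, given from 10 allelic reads on. How RNA-seq reads were assigned to alleles is not given in the sources used here.

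Groups came from the labels. Genes over 1 TPM in 2 or more samples of the fit were tested with edgeR 4.0.16 (quasi-likelihood, TMM, R 4.3.3) on counts, with Benjamini-Hochberg adjustment over all genes tested and a threshold of 0.05. Genotypes were compared over the 4 samples of each time; DOX and interaction were fitted over all 8, and B6:Cast ratios over 9595 genes with sample effects. SE is the log2 fold change over the root of the F statistic. TPM used exon lengths of GENCODE M21 (GRCm38). Alternatives used limma 3.58.1 and DESeq2 1.42.0. Tests were tried on simulated data first. Tables were made with Python 3.11.15, pandas 2.3.3, scipy 1.17.1 and matplotlib 3.10.9.

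Total counts of 6940375 to 17125156 reads a sample set the precision. Replicates of a group differed by more than sampling noise (chi-square per degree of freedom 3.73 to 12.1). The replicate numbers were taken to pair the Hdac3-/- samples, which are different clones: deviations from the group means at 0 and 24 hr correlated at r = 0.592 over 13807 genes, against 0.152 to 0.248 for the other pairs of groups. Members and gene lists were chosen with earlier results of these data known. Named were all 10 genes, Hdac3, and of each list at most the 4 called genes with the largest absolute log2 fold change. Neil2, Tdg, Tdrd1, Dpep3, Tex101, Dazl and Tex19.1 were named after their values were seen. So were the markers Tbx3 and Tfcp2l1, and the genes bounding the run around Tet3. Values of some list genes are not reported here.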

Additional observations from a re-analysis of the deposited data

How the results depend on the processing

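Of the 10 genes, Dppa3 alone kept its call in every alternative of both genotype comparisons. Leaving out single samples took the number of the 10 called to between 1 and 8 at 0 hr (6 with all samples in) and between 1 and 8 at 24 hr (4), with 1 left, Dppa3, when either Hdac3+/+ sample was missing; the lone sample is then assumed to vary like the other group. Over all genes these fits called 326 to 3353 at 0 hr, 162 to 3526 at 24 hr, 2 to 85 for DOX in Hdac3+/+, and 12 to 121 and 23 to 133 for the B6:Cast ratio at 0 and 24 hr. Values that missed the test changed sign: Dnmt1 at 0 hr (-0.044 to 0.038, and -0.0096 over all 8 samples), Dnmt3l at 0 hr (-0.023 to 0.59), and Tet3, whose value followed clone 1, at 0 hr (-0.18 to 0.78), in the interaction (-0.16 to 1.02) and in its log2 B6:Cast ratio (-0.54 to 0.79 at 0 hr, -0.49 to 0.79 at 24 hr). Without the filter on low values, 3107 and 2641 genes were called at 0 and 24 hr, 7 of the 10 at 24 hr, 275 (with Tet3) and 36 for DOX in Hdac3+/+ and Hdac3-/-, and 6 in the interaction; the cause was not tested. DESeq2 called 115, 15 and 1 genes for DOX in Hdac3+/+, in Hdac3-/- and their interaction, voom 14 in Hdac3+/+, and limma 2 genes for the B6:Cast ratio at each time. Fitting only a genotype's 4 samples gave 292 calls for DOX in Hdac3+/+, 1 of them of the 10 (Tet3, adjusted p = 0.0236, edgeR), and 1 in Hdac3-/-. By CPM in place of TPM, 0 of the 10 genes kept their rank.

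The sources say that the Hdac3-/- samples are different clones, but not which number is which clone. The replicate number was taken to mark the clone from the correlation between times (r = 0.592), though numbers also correlated weakly elsewhere (r of 0.152 to 0.248). It gave 2946 calls at 0 hr, 109 for the B6:Cast ratio at 0 hr, and, within each genotype, 1477 for DOX in Hdac3+/+ with 4 of the 10 (Uhrf1, Tet2 and Zfp57 higher, Tet3 lower, adjusted p = 4.12e-08, edgeR), 260 in Hdac3-/- with 2, and 253 in the interaction with 1 (Tet3, 0.47, adjusted p = 0.0061, edgeR). At 0 hr the block changed no call among the 10, and at 24 hr it added Uhrf1 and Tet1. Depth limits Dnmt3l, Tet3 and Dnmt3a most, which rest on as few as 49, 114 and 132 allelic reads.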
